A study of Mus musculus with 18 samples.

Results

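Lungs of A/J mice that had become moribund after thoracic irradiation were compared with lungs of untreated A/J mice. The 3 samples titled as sick A/J animals were set against the 3 titled as A/J controls, which makes 6 of the 18 arrays of the series. The other 12 arrays hold the same 2 groups of C57BL6/J and C3H/HeJ mice, with 3 arrays in each, and are used here only to show where A/J differs. All mice are inbred and carry no transgene according to the labels. At 8 weeks of age the thorax of the irradiated animals was exposed to 18 Gy of caesium-137 radiation, and lead over the rest of the body let 3% of the beam through. Irradiated A/J mice were killed at 30 to 32 weeks of age, which is 22 to 24 weeks after exposure. The sign for this was loss of more than 20% of body weight with ruffled fur, fast breathing and a hunched posture. Control mice of every strain were aged 15 to 26 weeks. Irradiated C57BL6/J mice were killed at 28 to 30 weeks of age (20 to 22 weeks after exposure) and irradiated C3H/HeJ mice at 20 to 22 (12 to 14 weeks after exposure). Differences between strains therefore cannot be told apart from differences of age and interval. In A/J, irradiation cannot be told apart from age, time since exposure and the moribund state. The 3 moribund animals are separate mice by the labels, while for the controls no label says whether the 3 samples are separate mice, so that part of the spread behind the p-values may be technical. RNA came from the homogenized right lung, so fewer cells of a type and less RNA per cell cannot be told apart.

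A/J is an inbred strain known mainly for alveolitis after thoracic irradiation, an inflammation of the air sacs. Alveolar type 1 cells form the thin gas exchange surface, type 2 cells make surfactant and renew the lining, and a dense net of capillaries lies against both. Radiation is known to injure the endothelium and the epithelium of this surface, and inflammatory cells, mast cells among them, enter the lung in the months that follow.

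Values below are quantile-normalized log2(signal + 7) unless stated otherwise, and changes are differences on that scale, given as irradiated minus untreated. Each error of a change is a standard error from limma, and a gene was called at an adjusted p under 0.05 (limma with Benjamini-Hochberg adjustment over 12405 genes). Only called genes are said to have risen or fallen. The constant of 7 makes changes of dim genes smaller than they are.

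The 6 A/J arrays showed the markers of lung. Sftpc and Scgb1a1, which encode a surfactant protein and the main secreted protein of club cells, lay at the top of the scale in all 6 arrays, where the normalization leaves little room for a change. The strain of the arrays was checked with probe sets that differ between untreated strains. The 3 irradiated A/J arrays lay 0.962, 0.916 and 0.918 of the way from C57BL6/J to A/J over 92 such probe sets, and 0.990, 0.945 and 0.953 of the way from C3H/HeJ to A/J over 55. Over the same 55 probe sets, C3H/HeJ irradiated 3 lay at 0.520, so counts set against C3H/HeJ below are also given without that array.

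Irradiated A/J arrays had lower ratios of 5′ to 3′ signal for control transcripts, a measure of how complete the labelled RNA was. The actin ratio was 0.742, 0.730 and 0.735 in controls and 0.413, 0.551 and 0.528 after irradiation, and it lay between 0.677 and 0.766 in the arrays of the other strains. For Gapdh it was 1.29, 1.30 and 1.14 in controls and 0.294, 0.876 and 1.03 after irradiation, with irradiated 1 far below the rest. The ratio for pyruvate carboxylase was 0.255, 0.213 and 0.254 in controls and 0.0581, 0.0711 and 0.114 after irradiation. For the transferrin receptor the values were 0.315, 0.374 and 0.262 against 0.228, 0.134 and 0.167. Its 5′ signal was dim, at 6.4 to 13.0 in controls and 3.7 to 11.5 after irradiation. The 25th percentile of all deposited signals is 6.7, so this ratio is the least certain of the 4. The groups did not overlap for any of the 4 transcripts, and each exact permutation test gave p = 0.1 (two-sided), the smallest p that 3 against 3 arrays allow. The extract protocol mentions a Bioanalyzer check of the RNA but gives no value. Overall brightness moved too. The trimmed mean of the deposited signal was 80.4 to 88.1 in the controls and 176, 128 and 81.2 in irradiated 1, 2 and 3. The part of either difference in the results below was not tested, beyond the values given without single arrays.

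**Figure D1:**
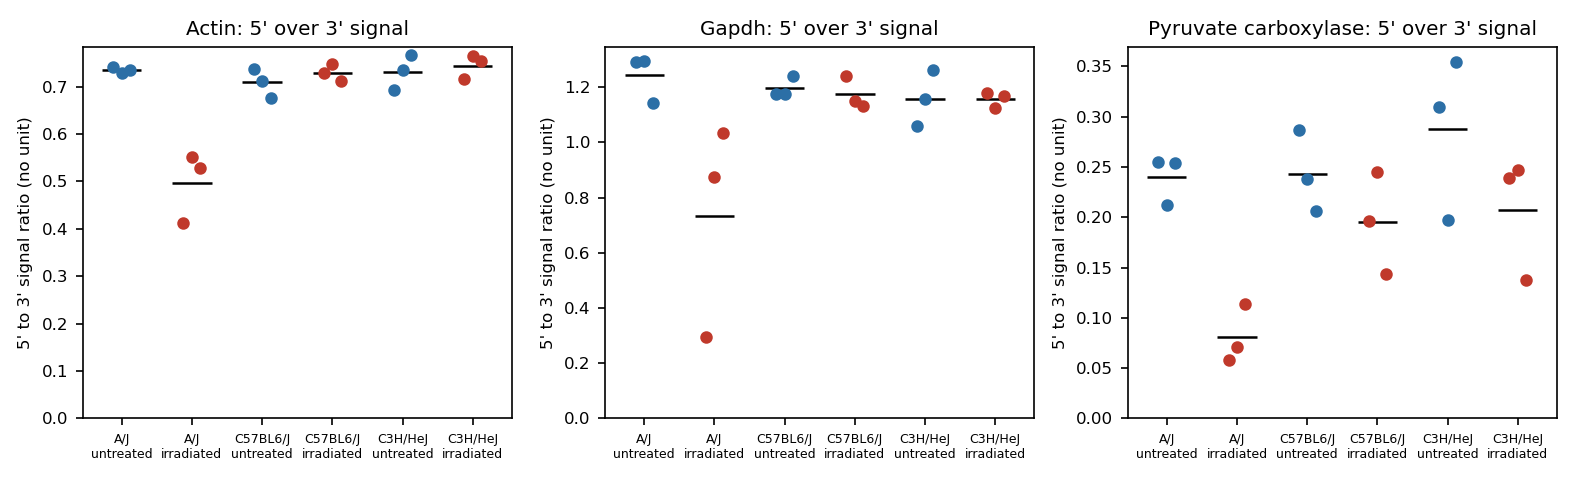
Ratio of 5′ to 3′ signal (vertical axis, no unit, from 0) of the control transcripts actin, Gapdh and pyruvate carboxylase in each of the 18 arrays, by strain and treatment (blue untreated, red irradiated), a point per array and a bar at each group mean. The 3 irradiated A/J arrays have actin ratios of 0.413 to 0.551, below every other array, and irradiated A/J 1 has a Gapdh ratio of 0.294.

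Genes of squamous epithelium and skeletal muscle were high in 1 irradiated A/J array. The mean over 22 genes of squamous epithelium, which lines the oesophagus, was 7.35 in irradiated 3, against 4.84 and 4.92 in irradiated 1 and 2 and 4.40 to 4.59 in controls. Krt4, a keratin of that epithelium, read 10.91 in irradiated 3 and 5.54 and 5.72 in the others. Skeletal muscle genes moved the same way, with a mean of 7.76 in irradiated 3, 5.28 and 5.06 in irradiated 1 and 2, and 4.68 to 4.97 in controls. Of the squamous list, 3 of 22 genes rose, and 0 without irradiated 3, when its median went from 1.04 to 0.52. C57BL6/J controls 1 and 3 held similar signal, with squamous means of 7.80 and 7.72. Larger list counts are therefore also given without irradiated 3, or without irradiated 1, where they move by more than 1.5 times. Counts of up to 3 genes often moved by 1 to 3 genes in that way and are best read as approximate.

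Irradiated and untreated A/J lungs differed in a large share of genes. Of 12405 genes, 1874 (15.1%) rose and 1105 (8.91%) fell, so that 24.0% were called. A total of 403 rose and 280 fell by more than 2-fold, and 51 rose and 31 fell by more than 4-fold. The 3 arrays of each group did not overlap for 40.4% of all genes and for 2893 of the 2979 called ones. Relative to the control mean, the risen genes had medians of 0.70, 0.66 and 0.62 in irradiated 1, 2 and 3, and the fallen genes −0.71, −0.66 and −0.65. These arrays chose the genes, so the values only describe how evenly the 3 mice contributed.

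The split between rises and falls depended on the scaling. Rises were 62.9% of the calls after quantile normalization, 94.1% without scaling (2312 rose, 144 fell) and 88.5% with each array centred on its median (4135 and 536). Averaging all probe sets of a gene gave 52.8% (1732 and 1547). The median change over all genes was 0.09 in the main setting, 0.56 without scaling and 0.33 with median centring, and list medians below are to be read against these. Without irradiated 1, 1570 genes rose and 1069 fell, and without irradiated 3, 1725 rose and 986 fell.

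**Figure D2:**
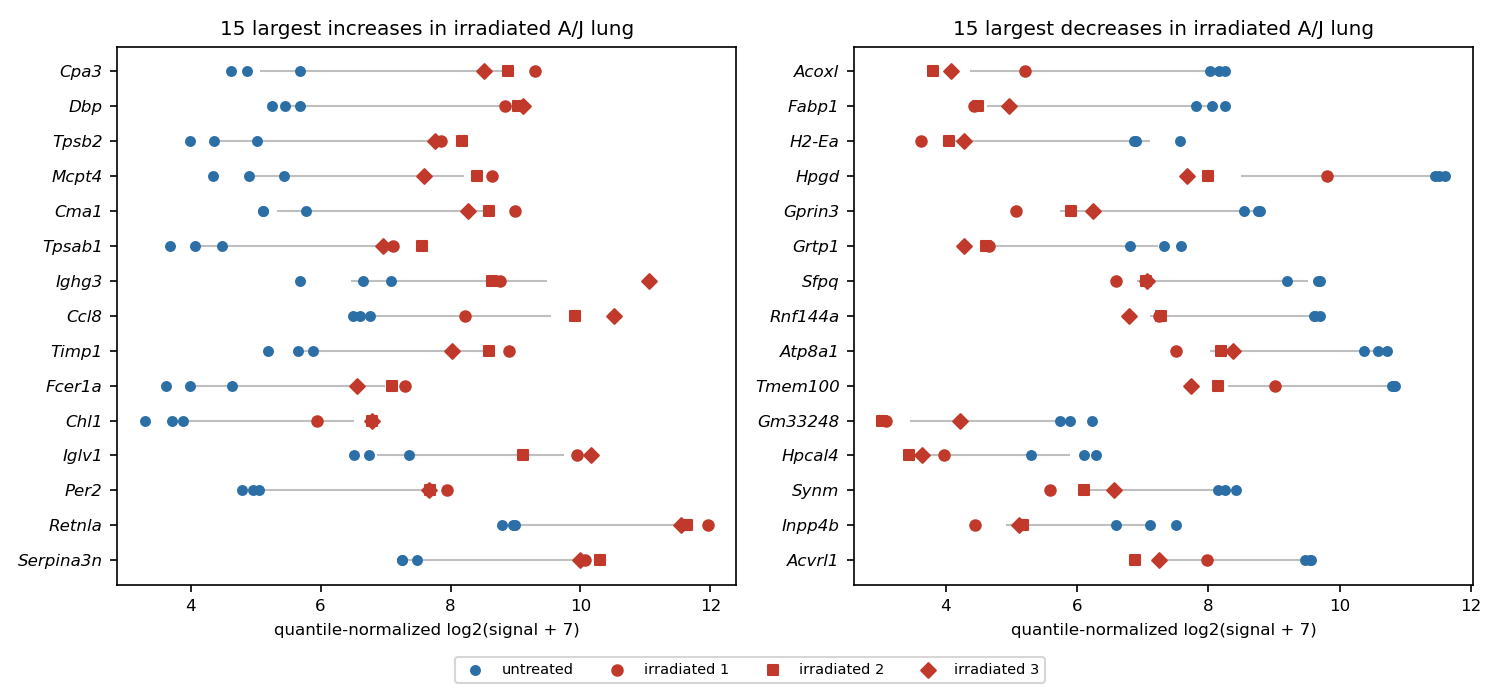
Values in the 3 untreated (blue) and 3 irradiated (red, a marker per array) A/J arrays, as quantile-normalized log2(signal + 7) on the horizontal axis, for the 15 genes that rose most and the 15 that fell most among called genes whose arrays do not overlap, joined by a thin line per gene. Mast cell genes such as Cpa3 (3.84) and the clock gene Dbp (3.54) lead the rises, and Acoxl (−3.78), Fabp1 (−3.41) and H2-Ea (−3.13) lead the falls.

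A total of 55 gene lists were used to describe the response by cell type and pathway, with 1198 genes tested. Lists share members, such as Per1 in the clock and glucocorticoid lists, so their counts are not independent. Each count is to be read against the 15.1% of all genes that rose and the 8.91% that fell. The largest shares of risen members were found for glucocorticoid-responsive genes and metallothioneins (20 of 25), complement and acute phase (23 of 29), matrix proteases and their inhibitors (17 of 27), collagens and matrix proteins (28 of 45), circadian clock (13 of 21), macrophages (27 of 45) and mast cells (8 of 14). These shares run from 80.0% down to 57.1%. That of mast cells depends partly on the filter, as described below. Falls were most frequent among MHC class I and antigen processing (6 of 14), endothelial cells (17 of 41), T and NK cells (9 of 27), B and plasma cells (7 of 22), xenobiotic metabolism (9 of 29) and RNA-binding proteins (12 of 43), from 42.9% down to 27.9%. The number of falls depended on the scaling, over all genes as in the lists. Among all genes, 144 of 12587 fell without scaling and 536 of 12400 with median centring. Without scaling, the fallen members numbered 0 for class I, 6 for endothelial cells, 2 for T and NK cells, 1 for B and plasma cells, 0 for xenobiotic metabolism and 5 for RNA-binding proteins. With median centring they numbered 1, 9, 10, 7, 2 and 6. Relative to the median of all genes, these list medians were −0.47, −0.47, −0.53, 0.08, −0.18 and −0.28 in the main setting. Without scaling they were −0.44, −0.37, −0.62, 0.12, −0.19 and −0.18. The 7 lists named first had 20, 22, 19, 33, 13, 34 and 9 risen members without scaling, when 2312 of all genes rose.

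**Figure D3:**
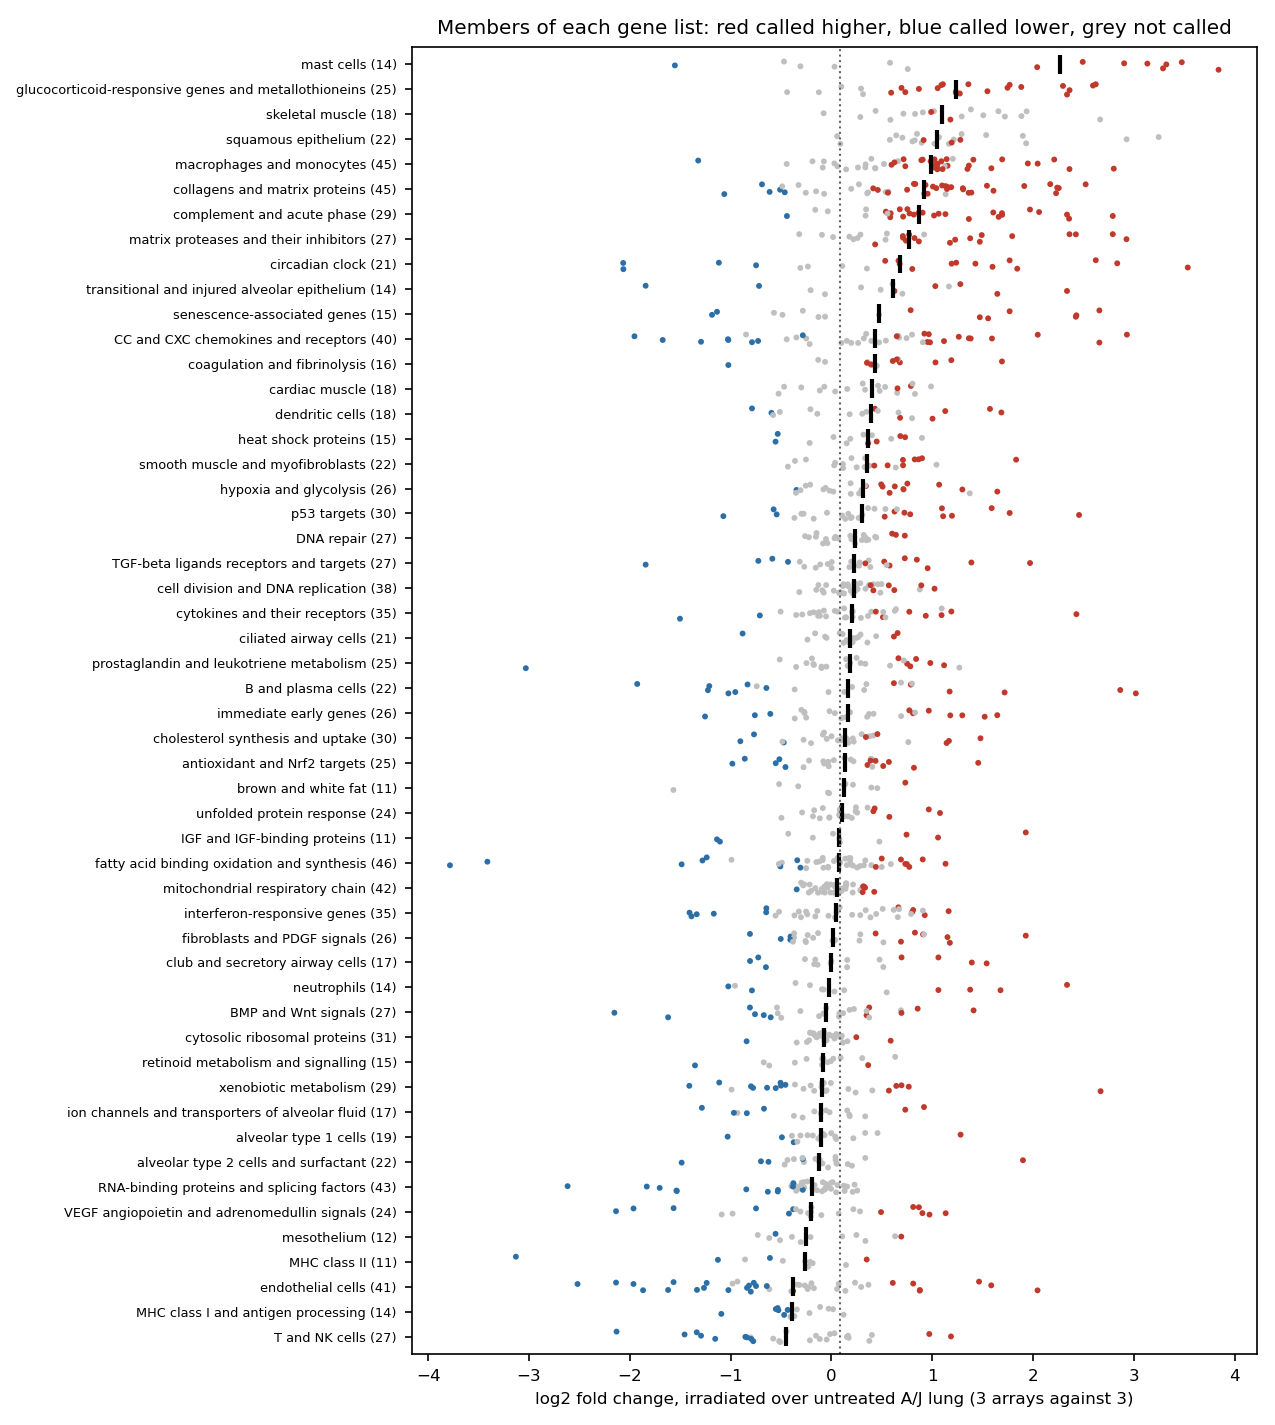
Change in irradiated A/J lung, as irradiated minus untreated on the quantile-normalized log2(signal + 7) scale (horizontal axis), for the tested members (number in brackets) of each gene list with 11 or more, ordered by the list median. Red points are called higher, blue lower and grey not called, black bars are list medians and the dotted line is the median of all genes (0.09). The mast cell (2.27), glucocorticoid (1.23), macrophage (0.98) and collagen (0.92) lists have the highest medians among the lung lists, and the T and NK cell (−0.45), MHC class I (−0.39) and endothelial (−0.38) lists the lowest.

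The circadian clock was among the most changed systems of the irradiated A/J lung. The clock is a loop of transcription factors in nearly every cell. Clock or Npas2 pairs with the product of Arntl (Bmal1) and binds E-box sequences of the Per and Cry genes and of Dbp, Tef, Nr1d1 and Nr1d2, and the Per and Cry proteins then shut off the pair. Dbp, Tef and Hlf proteins bind D-boxes, and the receptors encoded by Nr1d1 and Nr1d2 repress Arntl. Most of these E-box targets rose, while Arntl, Npas2 and Clock fell. Of 21 clock genes tested, 13 rose (61.9%, against 15.1% of all genes) and 4 fell (19.0%, against 8.91%), with a median of 0.68. The counts were 11 and 4 without irradiated 1, 12 and 4 without irradiated 3, and 13 and 2 without scaling.

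Promoter sequences are shown for the clock genes whose window from 250 bases before to 50 after the transcription start holds a searched motif, because many of these genes are known to be driven through E-boxes or D-boxes. They are from RefSeq (GRCm38.p6), are cut to the stretch around the motif, run 5′ to 3′ on the gene's strand, and have the motif in capitals. The E-box CACGTG, which is its own reverse complement, was found in 6 of 26 promoters of clock genes, which belong to 5 genes, and in 7.15% of 32851 promoters. The D-box, searched as TTATGTAA or TTACGTAA on both strands, was found in 1 of the 26, that of Per3, and in 1.06% of all promoters. Ciart, which encodes a repressor of the Clock and Arntl pair, has 3 E-boxes in chr3:95882222-95882389, minus strand.
Ciart: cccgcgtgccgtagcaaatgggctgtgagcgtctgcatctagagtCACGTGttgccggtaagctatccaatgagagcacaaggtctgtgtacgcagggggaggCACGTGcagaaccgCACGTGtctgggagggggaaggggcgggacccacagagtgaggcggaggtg
Per1 has 1 E-box in chr11:69098738-69098833, plus strand.
Per1: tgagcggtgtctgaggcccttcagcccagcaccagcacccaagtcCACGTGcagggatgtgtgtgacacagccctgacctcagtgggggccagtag
Tef has 1 in each of 2 promoters, chr15:81802501-81802596 and chr15:81811231-81811326, plus strand.
Tef upstream: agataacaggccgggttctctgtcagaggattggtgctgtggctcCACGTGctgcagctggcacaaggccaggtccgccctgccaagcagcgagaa
Tef downstream: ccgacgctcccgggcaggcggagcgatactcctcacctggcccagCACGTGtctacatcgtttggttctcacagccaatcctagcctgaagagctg
Cry1 has 1 in chr10:85185064-85185159, minus strand.
Cry1: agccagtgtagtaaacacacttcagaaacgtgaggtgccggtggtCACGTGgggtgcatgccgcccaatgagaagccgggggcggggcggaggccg
Bhlhe41 has 1 in chr6:145865523-145865618, minus strand.
Bhlhe41: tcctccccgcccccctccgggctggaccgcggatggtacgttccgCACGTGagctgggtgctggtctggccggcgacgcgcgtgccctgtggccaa
Per3 has both of its D-boxes in chr4:151044771-151044915, minus strand.
Per3: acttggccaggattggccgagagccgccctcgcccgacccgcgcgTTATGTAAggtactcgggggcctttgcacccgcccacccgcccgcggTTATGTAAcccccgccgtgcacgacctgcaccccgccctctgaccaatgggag
A match is only a run of letters in these windows. Among these 6 genes, Ciart, Per1, Tef and Per3 rose, while Cry1 (0.35) and Bhlhe41 (−0.31) were not called.

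Dbp, a D-box activator and a direct clock output, read 5.68, 5.45 and 5.25 in untreated A/J lungs and 8.83, 9.04 and 9.11 after irradiation. It rose by 3.54 ± 0.20 (adjusted p = 5.16e-08, limma), or 11.6-fold, and a second probe set gave 3.19. Per2, a repressor of the loop, read 4.95, 5.05 and 4.79 in controls and 7.95, 7.69 and 7.66 in irradiated lungs, a rise of 2.84 ± 0.12 (adjusted p = 8.14e-10). The groups were far apart for both genes, and the arrays within a group lay close together. Per1, with the E-box shown above, read 5.72, 5.75 and 5.92 in controls and 8.60, 8.37 and 8.29 in irradiated mice, a rise of 2.62 ± 0.16 (adjusted p = 8.25e-08). Arntl, the activator, read 6.93, 7.02 and 7.12 in controls and 5.46, 4.86 and 4.58 after irradiation. It fell by 2.06 ± 0.24 (adjusted p = 3.26e-05), without overlap, and so did its partner gene Npas2 (−2.07) from a control mean of 5.53 to 3.47.

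Other clock genes rose by smaller steps. They were Tef (1.84), Nr1d2 (1.77), Per3 (1.60), the repressor gene Bhlhe40 (1.43), Ciart (1.24), the deubiquitinase gene Usp2 (1.19), Hlf (0.80), Cry2 (0.68), Nr1d1 (0.67) and the kinase gene Csnk1e (0.53). Rora, an activator of Arntl, fell by 1.12 and Clock by 0.75. Csnk1d (0.11) and Nfil3 (−0.23), which encodes a repressor at D-boxes, were not called. Several of these calls rest on all arrays: that of Nr1d1 was lost without irradiated 2 or 3 or without control 2 or 3, that of Hlf without irradiated 1 or 2 or control 2, that of Cry2 without irradiated 1 and that of Clock without control 2. Another probe set was called the opposite way, or called where the brightest was not, for 3 of the genes. A dimmer probe set of Tef fell (−0.58), another of Rora rose (0.62), and another of Csnk1d fell (−0.38). The other probe set of Csnk1e and 1 of 3 others of Clock had the opposite sign without a call.

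At Dbp, Per2 and Arntl the untreated lungs differed more between strains than the irradiated ones did. Mean Dbp was 5.46 in untreated A/J, 9.76 in untreated C57BL6/J and 7.87 in untreated C3H/HeJ, while the irradiated means were 9.0, 8.60 and 8.41. The 3 irradiated means lay within 0.587 of each other, and the untreated means were spread over 4.30. Per2 and Arntl showed the same layout. Per2 means were 4.93, 7.59 and 5.63 in untreated A/J, C57BL6/J and C3H/HeJ and 7.77, 7.43 and 6.98 after irradiation, and Arntl means were 7.03, 4.56 and 6.26 against 4.96, 5.29 and 4.85. The labels give no hour of sacrifice for any group, and the part of the hour in these values was not tested.

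**Figure D4:**
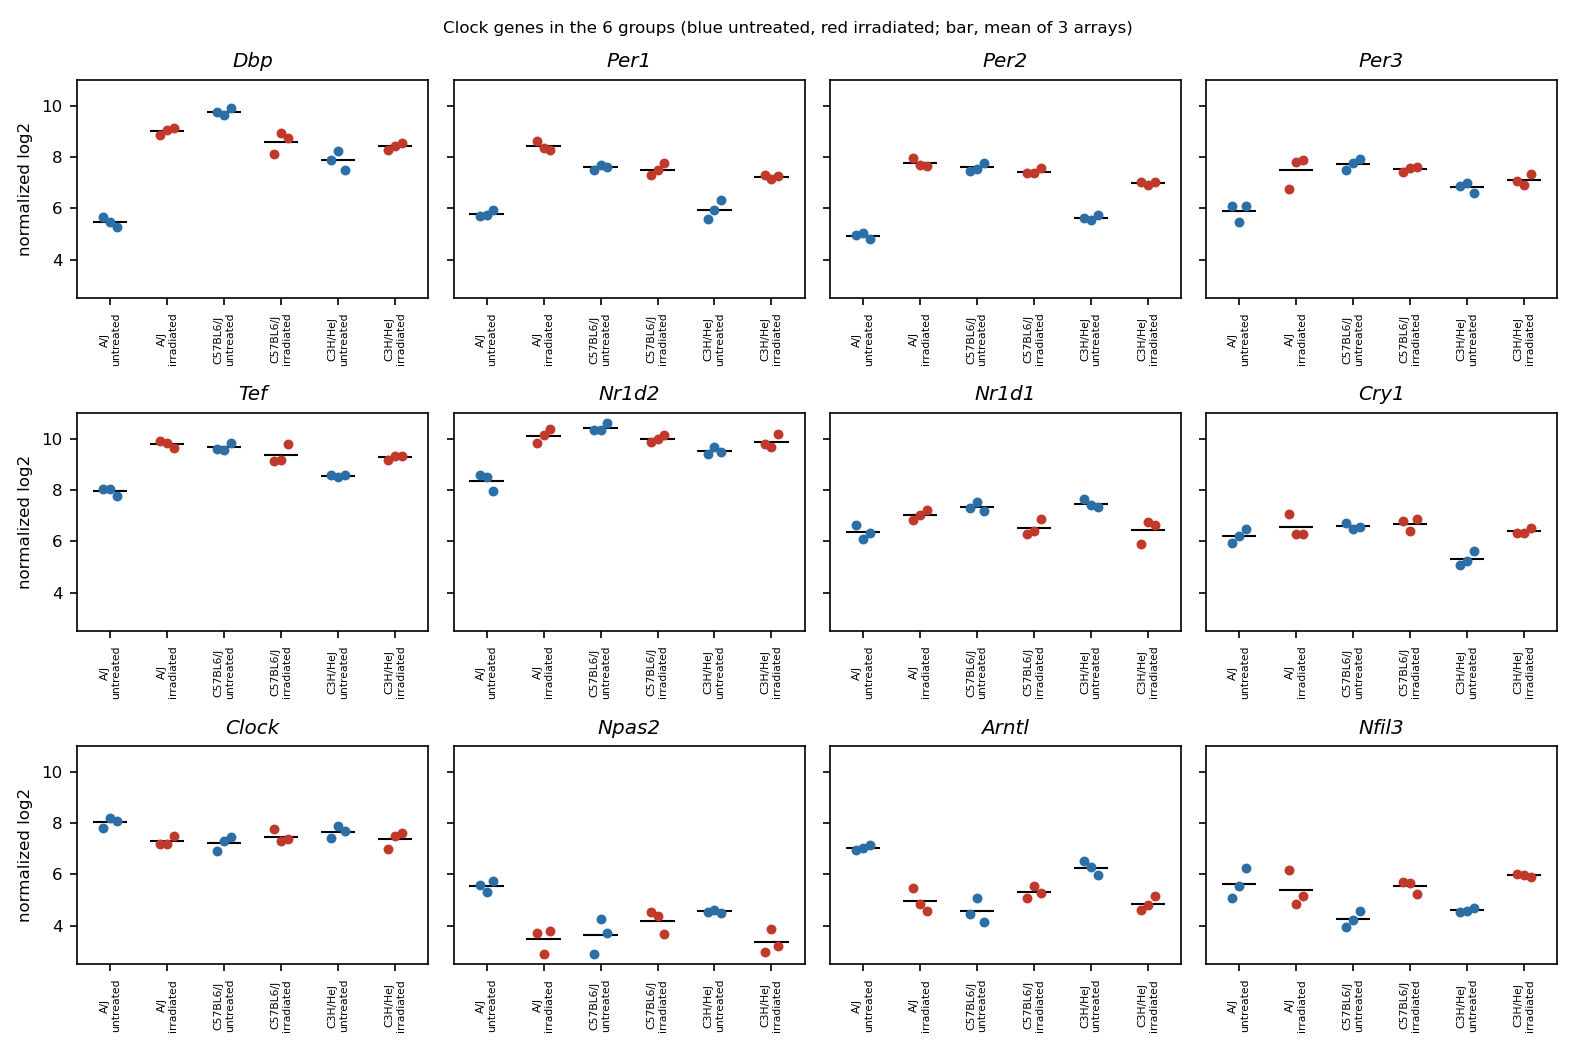
Quantile-normalized log2(signal + 7) (vertical axis) of 12 clock genes in each of the 18 arrays, for untreated (blue) and irradiated (red) A/J, C57BL6/J and C3H/HeJ lungs, a point per array and a bar at the mean of 3 arrays. At Dbp the irradiated means lie close together across strains (9.0, 8.60 and 8.41), while untreated means are spread (5.46, 9.76 and 7.87).

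Glucocorticoid-responsive genes and metallothioneins rose in 20 of 25 cases, with none fallen and a median of 1.23. Some of the former are also known to reset the clock. Per1 and Cdkn1a of this list are also counted among the clock genes and the p53 targets. Fkbp5, which encodes a chaperone that dampens the glucocorticoid receptor, read 5.33, 5.89 and 5.77 in controls and 8.19, 8.11 and 7.78 after irradiation. It rose in moribund mice of all strains, whose arrays lay between 7.78 and 8.60.

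Mast cell genes had the highest median of the 55 lists, a rank that depends partly on the filter. Mast cells are resident granule-filled cells that release histamine and proteases, and their granule genes are nearly specific to them. Of 14 genes tested from a list of 21, 8 rose and 1 fell, with a median of 2.27. Cpa3, the granule carboxypeptidase, read 4.62, 4.87 and 5.69 in controls and 9.31, 8.88 and 8.51 after irradiation, with no overlap. It rose by 3.84 ± 0.47 (adjusted p = 4.08e-05, limma), or 14.3-fold. The tryptases Tpsb2 (3.48) and Tpsab1 (3.13) and the chymases Mcpt4 (3.32) and Cma1 (3.29) rose with it. So did genes of the cell surface: Fcer1a (2.90) and Ms4a2 (2.49), which encode the alpha and beta chains of the high-affinity IgE receptor, and Mrgprb1 (2.04), a receptor for peptides.

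Some mast cell genes did not follow. Kit, the receptor for stem cell factor that mast cells need, read 8.71, 8.87 and 8.69 in controls and 7.56, 7.25 and 6.81 after irradiation. It fell by 1.55 ± 0.25 (adjusted p = 0.000453), and a second probe set by 1.68. Kit is also made by other lung cells, endothelial cells among them. Hdc (−0.31), which makes histamine, Gata2 (−0.47), Srgn (0.03), Hpgds (0.58) and Mcpt2 (0.76) were not called. Mcpt2, a protease of mucosal mast cells, read 5.56 in irradiated 1 and 3.58 and 3.17 in irradiated 2 and 3, near the controls at 3.09 to 3.60.

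Several of the genes that fell most take part in lipid handling. Acoxl, which encodes a protein like the acyl-CoA oxidases, read 8.25, 8.17 and 8.03 in controls and 5.21, 3.81 and 4.08 after irradiation. It fell by 3.78 ± 0.45 (adjusted p = 3.19e-05, limma), a factor of 13.8. Fabp1, a fatty acid binding protein, read 7.81, 8.25 and 8.05 against 4.43, 4.49 and 4.96, a fall of 3.41 ± 0.48 (adjusted p = 0.00012), and a second probe set gave −2.68. Neither gene overlapped between the groups. Hpgd, the enzyme that inactivates prostaglandins, read 11.45, 11.61 and 11.51 in controls and 9.81, 8.00 and 7.67 after irradiation. Its fall of 3.03 ± 0.40 (adjusted p = 7.36e-05) was smaller in irradiated 1 than in the other 2 mice. Cd36, the fatty acid transporter, fell from 11.84 to 10.36 (−1.49).

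The fatty acid list moved both ways, with a median of 0.08. Of 46 genes, 8 rose (17.4%, against 15.1% of all genes) and 8 fell (17.4%, against 8.91%). Acaa1b (−1.28), a peroxisomal thiolase, and Ppargc1a (−1.24), a coactivator of mitochondrial genes, were among the falls, and Lipa (1.13), the lysosomal lipase, and Pparg (0.91), the receptor that governs lipid storage, among the rises. Of 30 cholesterol genes, 5 rose and 3 fell, with Ch25h, which makes 25-hydroxycholesterol, at 1.48 and Sc5d, a late step of synthesis, at −0.90. Of 25 prostaglandin and leukotriene genes, 6 rose and 1, Hpgd, fell. Of 29 xenobiotic genes, 5 rose and 9 fell, with a median of −0.10 that became 0.37 without scaling. Cyp7b1, an oxysterol hydroxylase, rose by 2.67, while Fmo1 (−1.41), a monooxygenase, and Ahr (−1.11), the dioxin receptor, fell.

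The counts of called alveolar type 2 and type 1 genes were unsteady. Of 22 type 2 genes, 1 rose (4.55%) and 4 fell (18.2%), with a median of −0.12 (0.41 without scaling). Of 19 type 1 genes, 1 rose (5.26%) and 3 fell (15.8%), with a median of −0.11 (0.37 without scaling). Among all genes, 15.1% rose and 8.91% fell. The type 2 counts were 2 and 2 without irradiated 1 and 0 and 2 without irradiated 3. The type 1 counts were 1 and 6 without irradiated 1, 4 and 1 without irradiated 3, and 1 and 8 with the mean of probe sets. The type 2 falls were Cd36, Chia1 (−0.70), a chitinase, Nkx2-1 (−0.62), the factor that sets lung identity, and the chemokine gene Cxcl15 (−0.28). Chia1 lost its call when any A/J array but irradiated 1 was left out. Nkx2-1 lost its call without irradiated 1 or 3 or control 2. The type 1 falls were Sema3e (−1.03), Clic5 and Akap5, of which the latter pair turned positive without scaling. Spock2, a type 1 matrix proteoglycan, rose from 8.88 to 10.17 (1.28). Slpi, a secreted protease inhibitor, read 9.19, 10.59 and 12.08 in irradiated 1, 2 and 3 against 8.56 to 8.85 in controls. Its call (1.90) was lost when any A/J array but irradiated 1 was left out.

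Genes of injured or transitional alveolar epithelium rose in 5 of 14 cases and fell in 2, with a median of 0.62. Lcn2, a siderophore-binding protein, read 8.40, 8.35 and 8.62 in controls and 10.52, 10.92 and 10.93 after irradiation (2.34). Ndrg1 (1.65) rose as well, and Sfn (1.28), which is also made by squamous epithelium, lost its call without irradiated 3 or control 1. Itgb6, the integrin chain that releases active TGF-beta and is known to rise in injured epithelium, went the other way. It read 8.88, 8.58 and 8.59 in controls and between 6.39 and 7.14 after irradiation, a fall of 1.84 ± 0.24 (adjusted p = 6.01e-05, limma), and a second probe set gave −1.46.

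Airway genes were called in both directions. Of 17 club cell genes, 4 rose (23.5%, and 2 genes without irradiated 1) and 3 fell (17.6%). Agr2, a protein disulphide isomerase of secretory cells, stood at 1.54 and Gabrp at −0.81. Of 21 ciliated cell genes, Foxj1 (0.66) and Dnah9 (0.62) rose and Tppp3 (−0.88) fell. Those shares, 9.52% and 4.76%, lie below the 15.1% and 8.91% of all genes. The call of Tppp3 was lost without irradiated 2 or 3 or control 3. Among 17 genes of alveolar fluid transport, the epithelial sodium channel gene Scnn1a (0.92) rose together with Sgk1, the kinase that keeps that channel at the surface. The chloride channel gene Cftr (−1.28), the carbonic anhydrase genes Car14 and Car2 and the water channel gene Aqp1 (−0.84) fell. Cftr read 6.30, 6.27 and 6.27 in controls and 5.40, 4.87 and 4.72 after irradiation, with no overlap.

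Many endothelial genes fell, while the venule gene Ackr1 and both vascular selectin genes rose. Of 41 endothelial genes, 7 rose and 17 fell, with a median of −0.38, which became 0.19 without scaling, when 8 rose and 6 fell. Tek, the angiopoietin receptor, read 10.14, 10.24 and 10.01 in controls and 7.64, 8.17 and 8.17 after irradiation, a fall of 2.14 ± 0.18 (adjusted p = 1.75e-06, limma). Tmem100 (−2.52), a target of BMP signals in lung endothelium, and Calcrl (−1.96), the receptor for adrenomedullin, fell too. The apelin receptor gene Aplnr, a marker of general capillary cells, read 10.97, 11.08 and 10.84 in controls and 8.48, 9.86 and 9.86 after irradiation (−1.57).

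The defining endothelial markers were not called: Pecam1 changed by −0.32 (adjusted p = 0.14), Cdh5 by 0.37 and Kdr by −0.20. Ackr1 (2.05), the chemokine-binding receptor of venules, rose, and so did Sele (1.59) and Selp (1.46), the selectins that catch white cells, of which the latter pair was chosen after their values were seen. Of 24 genes of VEGF, angiopoietin and adrenomedullin signals, 6 rose and 6 fell, with a median of −0.20 (0.33 without scaling). The rises were led by the ligand gene Pgf (1.13) and the falls by receptors. The call of Pgf was lost without irradiated 1 or 2 or control 1 or 3. Of 16 coagulation genes, 8 rose, among them the fibrinogen chain gene Fgg (1.69), Plat (1.19), the tissue plasminogen activator, and Procr (1.03). Thbd (−1.02), thrombomodulin, was the only 1 of these to fall.

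The BMP pathway, which keeps the lung vessels quiescent, had falls in receptors and a ligand. Acvrl1 (ALK1), the endothelial receptor for BMP9 and BMP10, read 9.47, 9.57 and 9.54 in controls and 7.99, 6.88 and 7.25 after irradiation. It fell by 2.15 ± 0.27 (adjusted p = 5.32e-05, limma). Bmp6, a ligand, read 9.14, 9.13 and 9.10 in controls and 7.39, 7.66 and 7.46 in irradiated mice, a fall of 1.62. Bmpr2 (−0.76), the partner receptor, was chosen after its value was seen. Of 27 BMP and Wnt genes, 5 rose (3 without irradiated 1) and 6 fell, with a median of −0.05 (0.45 without scaling). The secreted Wnt inhibitor genes Sfrp1 (1.41) and Dkk3 (0.86) were among the rises.

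Matrix genes rose broadly. Of 45 collagens and matrix proteins, 28 rose and 5 fell (28 and 2 without irradiated 3), with a median of 0.92, and of 27 matrix proteases and inhibitors 17 rose and none fell. Col1a1, the main fibrillar collagen chain, read 7.35, 7.08 and 6.89 in controls and 9.40, 9.36 and 9.24 after irradiation. It rose by 2.23 ± 0.23 (adjusted p = 8.17e-06, limma). Its 3 irradiated arrays lay closer together than its 3 controls. The mesenchymal lists moved less: 8 of 22 smooth muscle and myofibroblast genes rose, led by Rgs5 (1.83), a pericyte gene, and 7 of 26 fibroblast genes rose while 4 fell (2 without irradiated 3), with a median of 0.02.

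Igf1, the growth factor made by lung macrophages and fibroblasts, read 6.52, 6.33 and 6.34 in controls and 7.64, 8.54 and 8.79 after irradiation (1.93). Among its binding proteins, Igfbp7 (1.06) rose, while Igfbp3 (−1.13) and Igfbp6 (−1.11) fell. Of 27 TGF-beta genes, 8 rose and 4 fell, with a median of 0.23. Inhba (1.97), which encodes the activin A chain, the latent TGF-beta binding protein gene Ltbp2 (1.39) and the target gene Ccn2 (0.95) rose. Tgfb1 itself changed by −0.31 (adjusted p = 0.411). The inhibitory SMAD genes Smad6 (−0.72) and Smad7 (−0.43), named after their values were seen, fell.

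MHC class II, the group of molecules that present antigen to helper T cells, had 1 gene with a very large fall in A/J. H2-Ea, the alpha chain of the I-E molecule, read 7.57, 6.87 and 6.90 in untreated A/J lungs and 3.62, 4.05 and 4.29 after irradiation. It fell by 3.13 ± 0.30 (adjusted p = 5.22e-06, limma) on its brighter probe set, and a second gave −1.56. C57BL6/J mice are known to carry a defective H2-Ea gene, and its means there were 3.76 untreated and 3.62 irradiated. In C3H/HeJ they were 7.09 and 6.62. On this probe set the irradiated A/J arrays lay within the range of C57BL6/J, so the size of the fall is a lower limit and no fold is given. On the second probe set they read 4.75, 5.10 and 5.24, above the C57BL6/J means of 3.87 and 3.22 and below the untreated A/J mean of 6.59.

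The other class II genes did not fall with it to that extent. H2-Ab1 read 10.14, 10.20 and 10.23 in controls and 9.55, 9.36 and 9.84 after irradiation, a fall of 0.61, and 2 other probe sets gave −1.50 and −1.58. H2-Ob (−1.13), part of a modulator of peptide loading, fell, mainly in irradiated 2 and 3 (6.13 and 6.19, with irradiated 1 at 7.49). H2-Eb1, the partner chain of H2-Ea, rose by 0.35, a call lost without irradiated 2 or 3 or control 2 or 3. H2-Aa (−0.21), Cd74 (−0.19), H2-DMa (−0.26), H2-DMb2 (−0.86), H2-Oa (−0.23), H2-Eb2 (0.14) and the class II master regulator Ciita (−0.48) were not called. The list median was −0.26, and 0.20 without scaling.

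In the main setting, some genes of class I presentation and several GTPases of the interferon-gamma response fell. Of 14 class I genes, none rose and 6 fell, with a median of −0.39 (0.12 without scaling). The falls numbered 3 without irradiated 1, 1 with median centring and 0 without scaling. Psmb9, an immunoproteasome subunit, read 9.28, 9.14 and 9.39 in controls and 8.09, 8.14 and 8.31 after irradiation, a fall of 1.09 ± 0.14 (adjusted p = 6.01e-05, limma). Psmb10 (−0.55) and Psmb8 (−0.53) were called in the main setting and turned positive without scaling. Nlrc5 (−0.53), the class I regulator, was called too. Its call was lost without scaling, and without irradiated 1 or 2 or control 2 or 3.

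The interferon list moved both ways. Of 35 members, 5 rose (14.3%, against 15.1% of all genes) and 6 fell (17.1%, against 8.91%), with a median of 0.05. Without scaling, 11 rose and 1 fell, with a median of 0.55. The falls included GTPases that interferon-gamma induces against intracellular microbes: Igtp (−1.41), Gbp6 (−1.39) and Irgm2 (−1.34), together with Ifi204 (−1.17). The calls of Igtp, Gbp6 and Irgm2 were lost without scaling. Igtp read 8.68, 8.85 and 9.12 in controls and 7.35, 7.30 and 7.78 after irradiation. Among the rises were the antiviral genes Oas2 (1.16) and Mx1 (0.93), chosen after their values were seen.

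Some T and NK cell genes fell, and the B and plasma cell list moved both ways. Of 27 T and NK genes, 2 rose and 9 fell, with a median of −0.45 (−0.06 without scaling, when 2 rose and 2 fell). The falls included the granzyme gene Gzma (−2.13), the perforin gene Prf1, whose other probe set had the opposite sign, and the transcription factor gene Tbx21, while the T cell marker Cd3e stood at −0.05. Of 22 B and plasma cell genes, 6 rose and 7 fell, and 9 rose and 1 fell without scaling. Ms4a1 (CD20), a surface marker of B cells, read 7.92, 8.36 and 7.91 in controls and 6.58, 5.91 and 5.92 after irradiation (−1.93), and the B cell receptor chains Cd79a (−1.21) and Cd79b (−1.22) fell with it.

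Iglv1, a light chain segment, read 6.51, 6.75 and 7.36 in controls and 9.95, 9.11 and 10.16 after irradiation (2.87). Jchain (1.72), which joins IgA and IgM units, read 10.20, 10.51 and 10.47 against 12.08, 11.97 and 12.28. Ighg3 (3.02) was uneven, at 8.77, 8.64 and 11.06, with the highest value in irradiated 3, the array with squamous signal. Without that array, 3 of the list rose and 6 fell. Prdm1, the regulator of plasma cells that T cells also make, fell (−0.83). Probe sets of antibody genes, and of tryptases, chymases and class II genes above, may bind close relatives of the gene named. Bach2, which holds B cells back from the plasma cell state and is also made by T cells, fell by 2.15, while other probe sets gave −0.63 and −0.20.

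Macrophage genes rose in 27 of 45 cases. Siglecf, a marker of alveolar macrophages that is also made by eosinophils, fell (−1.32) and was the only 1 of the list to do so. Retnla, a secreted product of alternatively activated macrophages and of epithelium, read 8.80, 9.0 and 8.96 in controls and 11.97, 11.65 and 11.55 after irradiation (2.80). Marco, a receptor of alveolar macrophages, was not called and read 5.25 in irradiated 1 against 8.21 and 7.55 in the others. Of 14 neutrophil genes, 4 rose and 2 fell, and without irradiated 3 none fell. The rises included Cd177 (1.68) and Mmp8 (1.38), and the falls were S100a8 (−0.79) and Cxcr2 (−1.02), the chemokine receptor, this pair chosen after their values were seen. Of 18 dendritic cell genes, 6 rose and 2 fell (3 and 3 without irradiated 1), with Clec10a, a lectin, at 1.69 and Fscn1, a cytoskeletal protein of mature cells, at 1.57.

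Chemokine genes known to draw monocytes were among those that rose, and Cxcl5 and Ccl5 among those that fell. Of 40 chemokine and receptor genes, 13 rose and 8 fell (5 without irradiated 3), with a median of 0.44. Ccl8 read 6.50, 6.61 and 6.76 in controls and 8.23, 9.92 and 10.51 after irradiation (2.93), lowest in irradiated 1. Ccl2 (2.66) and Ccl12 (2.05), which draw monocytes, rose. Cxcl5, a neutrophil chemokine of alveolar epithelium, read 5.41, 5.91 and 6.57 in controls and 4.02, 4.23 and 3.78 after irradiation, a fall of 1.95 ± 0.26 (adjusted p = 5.33e-05, limma). Ccl5 (−1.29) also fell, a call lost without irradiated 1 or 2 or control 1.

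Of 35 cytokine and receptor genes, 7 rose and 2 fell. Il6, the acute-phase cytokine, read 3.88, 4.05 and 4.20 in controls and 7.72, 5.95 and 5.75 after irradiation (2.43), highest in irradiated 1. Tnfsf10 (TRAIL), a death ligand, fell (−1.50). Of 29 complement and acute phase genes, 23 rose, with a median of 0.86, and Cd55 (−0.44), which protects host cells from complement, fell. C6, which takes part in the membrane attack complex, read 5.67, 5.96 and 6.15 in controls and 7.11, 8.03 and 7.62 after irradiation (1.66).

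Some p53 targets rose, and cell division genes rose about as often as genes in general. Of 30 p53 targets, 10 rose and 3 fell. Cdkn1a (p21), which stops the cell cycle, read 7.92, 8.02 and 8.00 in controls and 10.41, 9.54 and 9.29 after irradiation, a rise of 1.77 ± 0.28 (adjusted p = 0.000343, limma). Of 38 cell division genes, 6 rose and none fell, which is 15.8% against 15.1% of all genes, with Ccnd1 (1.02), cyclin D1, the highest, and Mki67, a marker of dividing cells, at 0.23 (adjusted p = 0.536). Of 27 DNA repair genes, 3 (11.1%) rose, Brca1, Chek2 and Brca2, and 1 rose without irradiated 3. Brca1 turned negative without scaling (−0.04) or without the filter on dim probe sets (−0.21).

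Oxidative and other stress genes were split. Of 25 antioxidant genes, 8 rose and 5 fell, and 4 rose without irradiated 1. Hmox1, haem oxygenase 1, read 6.85 in irradiated 1, close to the controls at 6.26 to 6.49, and 8.27 and 8.29 in irradiated 2 and 3 (1.46). Gclc (−0.98), which limits glutathione synthesis, and Gsta2 (−0.86), a glutathione transferase, fell. Of 26 hypoxia and glycolysis genes, 10 rose and 1 fell. Of 24 genes of the unfolded protein response, 5 rose (3 without irradiated 1), and of 15 heat shock genes, 4 rose and 2 fell. Of 26 immediate early genes, 7 rose and 3 fell (5 and 5 without irradiated 1), with Jun at −1.25. Chl1, an adhesion molecule of nerves, rose by 2.88, the most of 6 nerve genes, of which 3 rose.

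Energy and translation lists stayed near the median of all genes. Of 42 genes of the mitochondrial respiratory chain, 6 rose (2 without irradiated 1) and 1 fell, with a median of 0.06. Of 31 cytosolic ribosomal protein genes, 2 rose and 1 fell, with a median of −0.07. Of 15 retinoid genes, 1 rose and 1 fell, the latter Rara (−1.35), a retinoic acid receptor, whose call was lost when some single arrays were left out.

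RNA-binding proteins and splicing factors fell in 12 of 43 cases and rose in none, with a median of −0.19, or 0.37 without scaling. Sfpq, a nuclear splicing factor of paraspeckles, read 9.70, 9.67 and 9.20 in controls and 6.60, 7.05 and 7.07 after irradiation. It fell by 2.62 ± 0.22 (adjusted p = 1.75e-06, limma). Hnrnpu (−1.83), a nuclear matrix RNA binder, and Rbm25 (−1.70), a splicing regulator, fell too. These falls were not shared by all probe sets of the genes. The 6 probe sets of Sfpq gave −2.62, −0.91, −0.04, −0.71, 0.10 and −0.70, and the 5 of Hnrnpu gave −1.83, −0.24, −0.06, 0.12 and −0.19, in order of mean brightness. With the mean of all probe sets in place of the brightest, 22 of the list fell.

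Malat1, an abundant nuclear RNA that is not translated, was uneven between mice and between probe sets. Its brightest probe set read 12.70, 12.68 and 12.54 in controls and 8.89, 11.21 and 11.46 after irradiation. Irradiated 1, which has the lowest actin and Gapdh ratios, was also the lowest here. Its 7 probe sets gave −2.12, −2.63, −2.90, 0.24, −2.17, 0.49 and −1.01. Atp8a1, a phospholipid flippase gene among the 15 largest falls, had probe sets from −2.53 to 0.01. Position of the probe sets along these transcripts was not analysed here, and the part of RNA integrity in these falls was not tested.

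**Figure D5:**
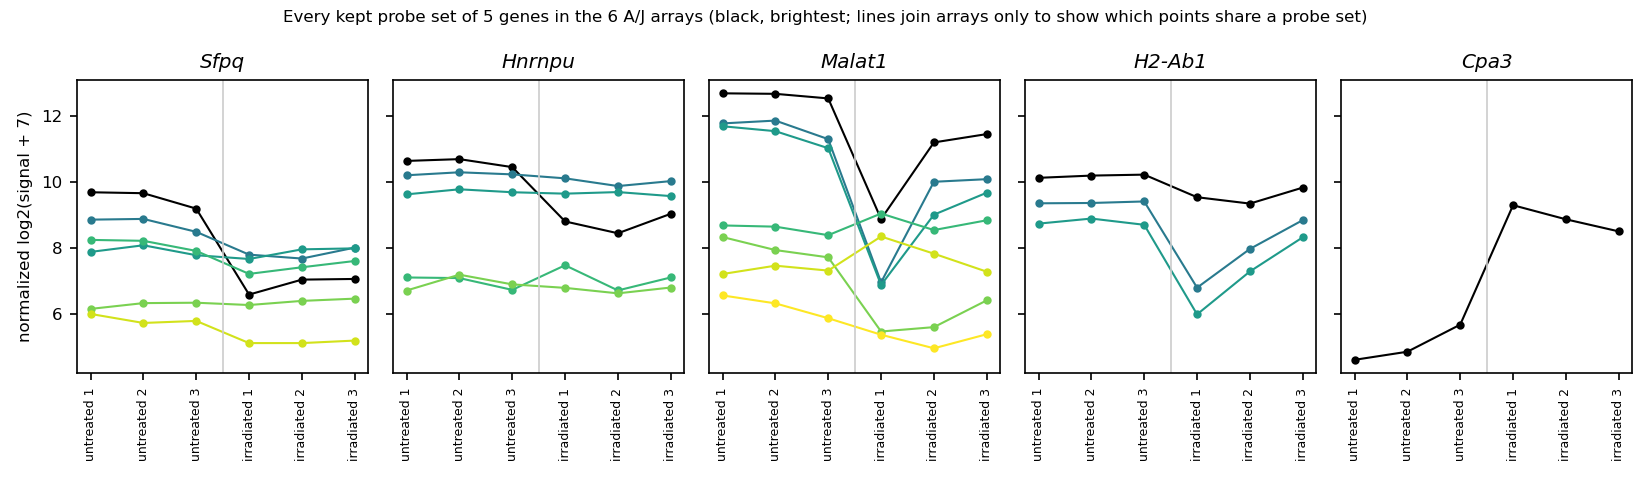
Quantile-normalized log2(signal + 7) (vertical axis) of every kept probe set of Sfpq, Hnrnpu, Malat1, H2-Ab1 and Cpa3 in the 3 untreated and 3 irradiated A/J arrays (horizontal axis), a coloured line per probe set with the brightest in black; lines only show which points share a probe set. The brightest probe set of Sfpq falls most (−2.62), 3 others fall less (−0.91, −0.71 and −0.70) and the rest stay level (−0.04 and 0.10). The brightest probe set of Hnrnpu falls (−1.83) and its others are not called. The 3 brightest Malat1 and both dimmer H2-Ab1 probe sets are lowest in irradiated 1.

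Other probe sets gave smaller changes in general. Of 805 risen genes with further kept probe sets, 521 (64.7%) had them all above 0, 296 (36.8%) had another called the same way and 81 (10.1%) had one called the opposite way. Of 651 fallen genes the counts were 449 (69.0%), 370 (56.8%) and 29 (4.45%). The median of the further probe sets was 0.27 where the brightest gave 0.60, and −0.40 where it gave −0.66. Opposite calls included Ccnd2, a cyclin gene, and Pfkfb3, a regulator of glycolysis, whose main probe sets rose (0.62 and 1.07) and others fell (−0.81 and −0.53).

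Set against the other strains, the A/J response overlapped with that of C3H/HeJ and C57BL6/J, with separate controls in each. In C3H/HeJ, 12.9% of genes rose and 10.6% fell. Of the 1874 genes that rose in A/J, 852 also rose in C3H/HeJ, which is 45.5% of the A/J list and 53.4% of the C3H/HeJ list, and of the 1105 that fell, 539 also fell there (48.8% and 40.9%). Without C3H/HeJ irradiated 3, 694 and 423 genes were shared. In C57BL6/J, 3.01% of genes rose and 2.36% fell. Of the genes risen in A/J, 247 also rose there (13.2% of the A/J list and 66.2% of the C57BL6/J list), and of the fallen 130 also fell (11.8% and 44.4%). Without the 3 arrays with squamous signal, which leaves 1 untreated C57BL6/J array, 18 genes rose and 12 fell in C57BL6/J, and 12 and 6 were shared. The median change of the genes risen in A/J was 0.66 in A/J, 0.41 in C3H/HeJ and 0.19 in C57BL6/J, and that of the fallen was −0.68, −0.41 and −0.13. The A/J values chose these genes.

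The A/J change itself differed from the C57BL6/J change in 5.38% of genes (668) and from the C3H/HeJ change in 1.06% (131). The former count was 88 without the 3 arrays with squamous signal and 414 or 341 without A/J control 1 or 2. The latter was 213 without C3H/HeJ irradiated 3 and 60, 37 or 67 without A/J control 1, 2 or 3.

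In 67 genes, the A/J change and both of its differences from the other strains were called, 27 among risen and 40 among fallen genes. The clock genes led the former. The A/J change of Dbp exceeded that in C57BL6/J by 4.70 and that in C3H/HeJ by 2.99, and the values for Per2 were 2.99 and 1.49, for Per1 2.71 and 1.34, for Nr1d2 2.19 and 1.39, and for Tef 2.14 and 1.13. Untreated A/J had the lowest of the 3 untreated means for these 5 genes. Without the 3 arrays with squamous signal, all 5 kept both calls, while without scaling only Dbp kept the call against C3H/HeJ, and with the mean of probe sets Tef lost both calls. Nr1d1 differed by 1.48 and 1.70. Bex1 and the transcription factor gene Rbpjl followed with differences of 1.83 and 1.74, and of 1.43 and 1.72. Both lost their calls of a difference without the 3 arrays with squamous signal, as did Nr1d1 and C6 against C57BL6/J. The call of Rbpjl in A/J was lost without irradiated 2 or 3 or control 1. C6 differed by 1.30 and 1.83, and it rose to 7.59 in A/J from 5.93, near the 7.36 and 7.06 of the untreated other strains.

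Among fallen genes, Cxcl5 differed most, by −2.99 from C57BL6/J and −3.70 from C3H/HeJ, where it changed by 1.03 and 1.75. Its untreated arrays were highest in A/J (5.41 to 6.57, against 2.83 to 3.70 in the other strains). H2-Ea followed at −2.98 and −2.66. Itgb6 differed by −2.42 and −1.83: its means were 8.69 and 6.84 in A/J, 8.11 and 8.68 in C57BL6/J, and 8.81 and 8.80 in C3H/HeJ. Bach2 differed by −2.45 and −2.07, from 7.40 to 5.25 in A/J, where the other strains stayed between 6.65 and 7.73 in all 12 arrays. Sfpq (−2.59 and −1.75), the heparan sulphate proteoglycan gene Sdc4 (−1.75 and −1.72), Glipr2 (−1.91 and −1.95) and H2-Ab1 (−0.93 and −0.98) completed this group with Med1, a subunit of the Mediator complex (−1.72 and −1.96). Cxcl5, H2-Ea, Itgb6, Bach2 and Sfpq kept both calls without the 3 arrays with squamous signal, and Sdc4, Glipr2 and H2-Ab1 lost the one against C57BL6/J. With the mean of probe sets, Bach2, Sfpq, Sdc4 and H2-Ab1 lost the call against C3H/HeJ. A probe set of Med1 of nearly the same brightness gave 0.12 in A/J, and the call was lost without any 1 of the 3 controls or without the 3 arrays with squamous signal, when that probe set stands for the gene.

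Many of the large A/J changes had a counterpart in the other strains. Cpa3 rose by 3.84 in C3H/HeJ too, a difference of 0.00, and by 2.09 in C57BL6/J. Acoxl changed by −3.29 in C3H/HeJ and −1.59 in C57BL6/J, and Tek by −2.73 and −1.68. Kit changed by −2.06 in C3H/HeJ and −2.16 in C57BL6/J, and Cdkn1a by 2.29 and 2.57. The mast cell list as a whole moved less in C57BL6/J. Its median change was 2.27 in A/J, 1.82 in C3H/HeJ and 0.24 in C57BL6/J. Ms4a2, Mrgprb1 and Mcpt2 passed the filter only through irradiated A/J and C3H/HeJ arrays. A lower median in C57BL6/J is therefore partly built in by the filter. Cma1, taken as an example from that list, rose more in A/J than in C57BL6/J, by 2.61 (adjusted p = 0.0028, limma).

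The 3 irradiated A/J arrays varied more among themselves than the 3 untreated ones. No label says whether the controls are separate mice, so their smaller spread may be technical. The irradiated arrays include the one with squamous signal and are uneven in 5′ to 3′ ratios and brightness. The part of these in the spread was not tested. The median SD over genes was 0.187 in irradiated and 0.131 in untreated A/J arrays, and 0.149 to 0.165 in the other groups. Pairs of irradiated A/J arrays correlated at 0.944 to 0.971 over genes and pairs of untreated ones at 0.984 to 0.9855. Irradiated 1 stood apart at Marco, Hmox1, Hpgd, Ccl8, Il6 and Malat1, and irradiated 3 at the squamous and muscle genes, Ighg3 and Slpi. The spread differed by gene within lists as well. The 3 irradiated arrays of Col1a1 lay within 0.158 of each other, while the clock gene Per3 read 6.76 in irradiated 1 and 7.81 and 7.89 in the others.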

How the data were processed

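Lung RNA was measured on 18 single-colour oligonucleotide arrays, 6 of them from A/J. The authors deposited 1 linear signal intensity per probe set and array, made with MAS5 per the submitters' processing notes, which give no version. Whether the arrays were scaled to a common target is not given in the sources used here, and overall brightness differed between arrays (trimmed means of 46.5 to 176). Signals were therefore quantile-normalized as log2(signal + 7), where 7 is the rounded 25th percentile of the deposited intensities. Of 45101 probe sets, 64 controls were left out, and 25726 were kept, those that exceeded the overall median on 3 or more of 18 arrays. The platform annotation named 1 gene for 34958 probe sets and several for 932, and 9211 stay unnamed here. The brightest kept probe set naming a gene alone stood for it, which gave 12405 genes.

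Comparisons were fitted with limma 3.58.1 in R 4.3.3 on all 18 arrays as 6 group means (12 residual degrees of freedom), two-sided, with Benjamini-Hochberg adjustment and a threshold of 0.05. The fit was tested on simulated arrays. The number of arrays limits the precision. Members and lists were chosen with earlier results of these data known. Lists are described by counts and medians, without a test. Genes named are the 15 highest and 15 lowest called changes without overlap between groups, up to 4 called members per list, all clock, class II and mast cell members, 13 fixed genes (Gapdh had no kept probe set naming it alone), the 8 highest and 8 lowest that differed from both other strains, and the 5 most and 5 least variable called genes. Other members named as examples were chosen after their values were seen. Some genes are not reported here. Alternatives were the scaling, the pseudocount, the filter, the probe set rule, array weights, a robust trend, a replicate block and leaving out arrays. Same-numbered samples did not deviate together (correlations of −0.028, 0.006 and −0.058).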

Additional observations from a re-analysis of the deposited data

Results flagged for a closer look

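In 67 genes the A/J change and its difference from both other strains were called, by the interaction terms of the limma fit on 3 arrays per group, and 18 of them are given here. Values are the A/J change minus the C57BL6/J change, then minus the C3H/HeJ change, on the log2 scale. Among genes that rose in A/J, 6 belong to the clock: Dbp (4.70 and 2.99), Per2 (2.99 and 1.49), Per1 (2.71 and 1.34), Nr1d2 (2.19 and 1.39), Tef (2.14 and 1.13) and Nr1d1 (1.48 and 1.70). Bex1 (1.83 and 1.74), Rbpjl (1.43 and 1.72) and C6 (1.30 and 1.83) are the others. Among genes that fell in A/J, Cxcl5 differed by −2.99 and −3.70, H2-Ea by −2.98 and −2.66, Bach2 by −2.45 and −2.07, and Itgb6 by −2.42 and −1.83. Sfpq differed by −2.59 and −1.75, Glipr2 by −1.91 and −1.95, Sdc4 by −1.75 and −1.72, Med1 by −1.72 and −1.96, and H2-Ab1 by −0.93 and −0.98. All 18 were called against C3H/HeJ without C3H/HeJ irradiated 3. Without the 3 arrays with squamous signal, 10 were called against C57BL6/J and 15 against C3H/HeJ. Without scaling, the counts were 15 and 9. With the mean of probe sets they were 17 and 13.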

How the results depend on the processing

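The number of genes called in A/J (2979, with 4507 at an unadjusted p under 0.05) was 4671 with median centring and stayed within 1.5 times of the main count under the other alternatives, with 2082 to 2937 when single arrays were left out. The count for the difference from C57BL6/J (668) was 251 without scaling, 439 without a filter, 1182 with array weights, 88 without the 3 arrays high in squamous keratins and 341 to 719 with single arrays left out. That from C3H/HeJ (131) was 36 without scaling, 71 with median centring, 47 without a filter, 627 with array weights, 247 with a robust trend, and 37 to 213 with single arrays left out. Same-numbered samples do not pair, and with the replicate number as a block the 3 counts were 2464, 347 and 39. Of 222 named called genes, 137 kept their call and direction in each of 20 alternatives. Without scaling these turned: Clic5 (0.0707), Akap5 (0.20), Psmb10 (0.0234), Psmb8 (0.0696), Brca1 (−0.0394), Cryab (0.0222), Hsp90aa1 (0.0343), Ndufc1 (0.25) and Actb (0.0703). Ndufc1 (0.0181) also turned with median centring, Brca1 (−0.21) without a filter, and Ccnd2 (−0.0659) and Sdhc (−0.0066) with the mean of probe sets. With single A/J arrays left out, Med1 lay between −1.97 and 0.14, with 0.11 to 0.14 without a control, and it was 0.15 without the squamous arrays, when another probe set stands for it. Except for Med1, the cause of these changes was not tested. Signals near background limit the changes of dim genes, and 3 arrays per group limit the rest.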
